A study of Homo sapiens with 6 samples.

Results

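Heat shock and J-domain genes were examined in MDA-MB-231 cells, an established human breast cancer line of mesenchymal character, by RNA sequencing of 6 libraries. The members were the rows of the count table with a gene symbol of the DNAJA, DNAJB, DNAJC, HSPA, HSPB or HSP90A series, or named HSPH1, HSPD1, HSPE1, HSF1, HSF2, HSF4 or BAG1 to BAG5. DNAJB9, DNAJC3, HSPA5, HSPA1A, HSPA1B, HSPA1L and BAG6 were left out by the rule. It picked 82 of the 54259 genes in the table by symbol alone, but was set with earlier results of these data known. The rule carries the name of cytosolic heat shock and J-domain proteins. Only 35 of the 82 genes were assigned to the chaperones, co-chaperones or J-domain proteins of the cytosol. They include 5 BAG genes and 8 genes of the HSPB series. Among these 35, HSPA7 and DNAJB3 are pseudogenes in the annotation used. A further 10 members were assigned to the endoplasmic reticulum (ER) and 9 to mitochondria, while 3 are heat shock factors and 11 are HSP90 pseudogenes. The last 14 are DNAJC proteins of assorted places, some of them cytosolic. These assignments came from textbook knowledge of each gene and were made after the values had been seen.

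Of the 6 libraries, 3 came from cells with an shRNA labelled shBry, directed at brachyury, a T-box transcription factor of the embryonic mesoderm and notochord, and the other 3 from cells with a control shRNA labelled shNC. The comparison was set up to address which transcripts change when brachyury is knocked down in a breast cancer line. The hairpin used in these cells was not named in the sources used here and there was a single shBry condition, so effects of the hairpin and of the knockdown cannot be told apart. The labels do not say whether the libraries of a group came from separate cultures, and p-values then measure only the spread between these samples, which may be technical.

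Total counts were between 19319411 and 22985371 per library. Brachyury, listed as T, had 0 counts in all 6 libraries, also in the shNC controls. A knockdown could therefore not be verified from these counts. The paper on these data describes brachyury as overexpressed in this line, which these counts do not show. The deposited design text calls the RNA pericardial, while the sample labels name MDA-MB-231 cells. The MDA-MB-231 markers VIM, CD44 and AXL together made up 4836 to 5074 CPM (counts per 1000000, TMM-normalized) in shBry and 5154 to 5407 CPM in shNC libraries. Taken singly, VIM was lower in shBry (log2 fold change -0.27), while CD44 (0.34) and AXL (0.33) were higher. The groups did not overlap for any of these markers, and none was called. All 4 cardiac muscle markers had at most 2 counts and all 4 leukocyte markers at most 3 counts in any library, with MYH6, MYL7, PTPRC and TYROBP at 0. Of 4 mesothelial markers, WT1 and UPK3B were near 0 and MSLN was at 45.9 ± 2.89 CPM in shBry and 32.1 ± 3.84 CPM in shNC (SD, n = 3), and the 4 together summed to 44.9 to 50.6 CPM in shBry and 35.4 to 39.0 CPM in shNC. CALB2 was at 0.590 to 1.37 CPM in 5 libraries and at 11.1 CPM in shNC replicate 3, and was called lower (log2 fold change -2.52, edgeR adjusted p = 0.0073), a call lost without that library (-0.81). The luminal markers ESR1, PGR and CDH1 had at most 2 counts in any library, and the 5 luminal markers together, most of it GATA3, summed to 16.3 to 18.9 CPM in shBry and 10.4 to 13.6 CPM in shNC. EPCAM was called higher in shBry, at 4.28 ± 0.681 beside 1.55 ± 0.513 CPM. The part of these marker differences in the results was not tested.

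Molecular chaperones bind unfolded protein and help it fold, hold it soluble or pass it on for degradation. HSP70 proteins do so in cycles of ATP hydrolysis that J-domain proteins (DNAJA, DNAJB and DNAJC) start and that nucleotide exchange factors, such as HSP110 and BAG proteins, complete, whereas HSP90 acts later on kinases, steroid receptors and other clients. Heat shock factor 1 (HSF1) binds heat shock elements, runs of GAA and TTC units in alternating orientation, and drives many of the cytosolic chaperone genes under proteotoxic stress. Mitochondria and the ER have their own HSP70 and J-domain proteins, coded in the nucleus and partly under other stress responses.

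Transcripts of the members assigned to the cytosol were mostly lower in shBry cells, among them HSPA8, HSP90AA1, DNAJA1, HSPH1, DNAJB1 and BAG3. HSPA9 of the mitochondria and 4 ER members rose. A gene was called when its p in the quasi-likelihood test of edgeR, adjusted by Benjamini-Hochberg over all genes tested, was below 0.05 and the fold change was above 1.5. In all, 62 members had enough counts for the test, and 8 of them rose and 16 fell. Among all 15277 genes tested, 17.1% rose, 15.2% fell and 32.4% were called in either direction. The members' called share, 38.7%, was thus near that of all genes, and their median log2 fold change was -0.08 beside 0.03 for all genes. By place in the cell, as assigned after the values had been seen and with no test of a difference between places, the counts were as follows. Of 25 tested cytosolic members, 12 fell and 1 rose, with a median log2 fold change of -0.55. Of 10 tested ER members, 4 rose and none fell, with a median of 0.42. Mitochondrial members gave 1 rise and 1 fall among 8, and the 3 heat shock factors no call. The other DNAJC members gave 2 rises and 1 fall among 14, with a median of 0.14. Some of these 14 act in the cytosol, such as DNAJC2, which was called higher. The cytosolic counts therefore depend in part on where such genes were placed. In RNA from a bulk culture, fewer cells that express a gene and less of its RNA per cell cannot be told apart.

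The 3 libraries of a group did not overlap with those of the other for 46 of the 62 tested members, 20 of them higher and 26 lower in shBry. Over all tested genes the groups did not overlap for 59.5%, with shBry higher for 30.6% and lower for 28.9%. With the adjusted p alone and no limit on the fold, 17 members were higher and 26 lower, beside 28% of all genes higher, 25.3% lower and 53.3% in either direction. Another 20 members could not be tested, 12 of them without a single count and the rest with at most 8 counts in any library. They were DNAJA4, DNAJB3, DNAJB7, DNAJB8, DNAJB13, DNAJC28, HSPA7, HSPB2, HSPB3, HSPB7, HSPB9 and 9 of the 11 HSP90 pseudogenes. Without any HSP90 pseudogene, 8 members rose and 14 fell among 60. No tested member passed the count filter through 1 group alone.

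**Figure D1:**
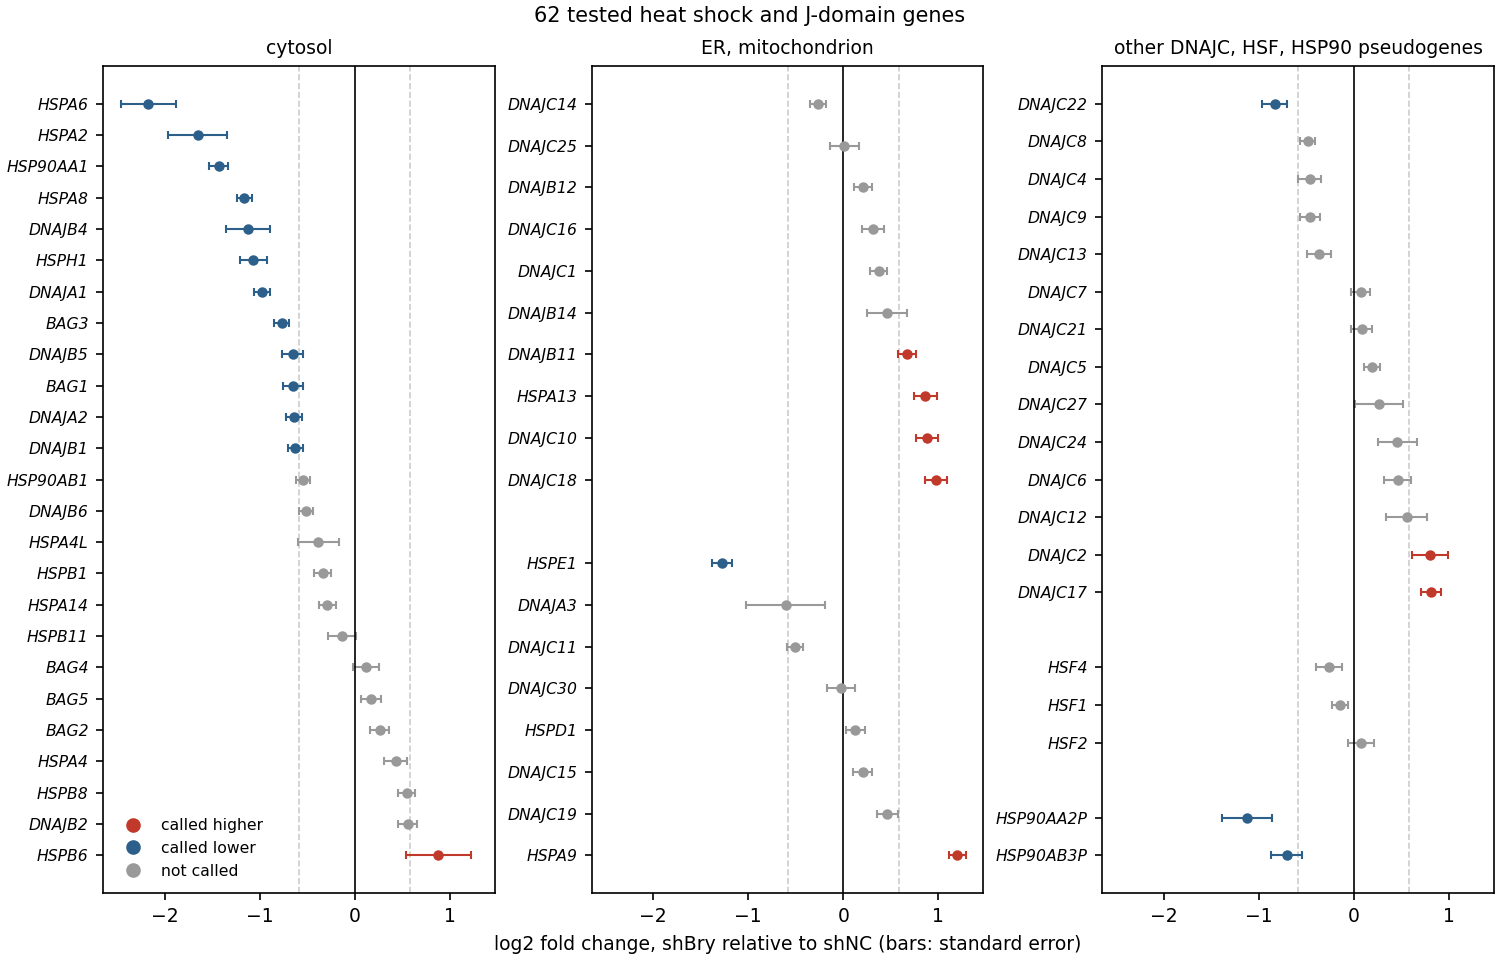
Log2 fold changes of the 62 tested members, shBry relative to shNC (x axis), with standard errors as bars, in panels for cytosolic members, ER (top) and mitochondrial (bottom) members, and the remaining genes. Dashed lines mark a fold change of 1.5, and the cytosolic panel holds 12 called falls and 1 called rise, while the ER group holds 4 called rises and no called fall.

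A full heat shock element was found for 4 members in a RefSeq promoter window. The window runs from 250 bases before to 50 bases after the annotated start, and any other start of a gene was not searched. The element searched was GAANNTTC followed directly by NNGAA or, read on the other strand, TTCNNGAA followed directly by NNTTC. These stretches are shown because the 4 genes are 4 of the cytosolic members that were lower in shBry cells. Capitals mark the element, each line reads 5′ to 3′ on the strand of the gene, and the positions are of GRCh38.p14. The HSPA8 stretch, chr11:123062137-123062386 on the minus strand, covers all bases of the window before the start, with elements that begin 230 and 55 bases before the start. The HSPA6 stretch lies at chr1:161524442-161524502 on the plus strand, with an element that begins 74 bases before the start. The DNAJB6 stretch lies at chr7:157336849-157336909 on the plus strand, with an element that begins 131 bases before the start. The DNAJA1 stretch lies at chr9:33025268-33025296 on the plus strand, with an element that begins 3 bases after the start.
HSPA8: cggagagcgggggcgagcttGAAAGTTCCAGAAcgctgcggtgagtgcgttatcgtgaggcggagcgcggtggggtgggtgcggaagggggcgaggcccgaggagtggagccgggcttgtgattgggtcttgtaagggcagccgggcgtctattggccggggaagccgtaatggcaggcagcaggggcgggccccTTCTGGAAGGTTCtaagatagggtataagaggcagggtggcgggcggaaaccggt
HSPA6: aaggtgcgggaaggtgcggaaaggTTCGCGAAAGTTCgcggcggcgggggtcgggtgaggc
DNAJB6: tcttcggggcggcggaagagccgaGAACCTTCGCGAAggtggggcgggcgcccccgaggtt
DNAJA1: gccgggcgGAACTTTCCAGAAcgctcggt

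Promoters were matched for 61 members, and 6.56% of these held the element, beside 0.487% of all 27305 promoters. The shorter forms with a pair of units, which each full element also contains, were more common throughout. GAANNTTC was in 9 of 61 member promoters (14.8%, beside 6.87% of all) and TTCNNGAA in 8 (13.1%, beside 7.84% of all). The 4 members with a full element had log2 fold changes from -2.17 to -0.51, all below 0. Of the 57 without one in the window searched, 49 were tested. Their log2 fold changes were below 0 for 22 and above 0 for 27, with a median of 0.08. All 4 with the element are cytosolic. Among the cytosolic members without it in the window searched, 12 of 18 tested were also below 0, with a median of -0.59. HSP90AA1, HSPH1, BAG3 and DNAJB1 were among these 12. These values do not separate the element from the place in the cell, and members without a match may hold the element at a start not searched. HSP90AA1, HSP90AB1 and HSPH1 had no match in their windows, which says only that these letters are not there. The HSP90AA1 window (chr14:102139700-102139999) lies at the upstream end of a gene spanning chr14:102080738-102139699. The DNAJB1 window (chr19:14529222-14529521) likewise lies near the upstream end of chr19:14514770-14529770. Any starts further inside these genes were not searched. A match in sequence is not evidence of binding in these cells.

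HSP90AA1 and HSP90AB1 code for the stress-inducible and the constitutive form of cytosolic HSP90. HSP90AA1 (chr14:102080738-102139699, minus strand, GRCh38 positions from GENCODE 29 here and below) was at 416, 463 and 431 CPM in shBry replicates 1 to 3 and at 1034, 1136 and 1359 CPM in shNC replicates 1 to 3. Every shBry library was below every shNC library, with means of 437 ± 24.2 and 1176 ± 166 CPM (SD, n = 3). The gene fell 2.69-fold, with a log2 fold change of -1.43 (SE 0.10, edgeR adjusted p = 4.1e-08). HSP90AB1 (chr6:44246166-44253888, plus strand) was at 1544, 1458 and 1597 CPM in shBry and 2184, 2207 and 2326 CPM in shNC. These groups did not overlap either, but the 1.46-fold difference (log2 fold change -0.55, SE 0.08, edgeR adjusted p = 3.4e-05) was under the fold limit and the gene was not called. Per length of exon, HSP90AB1 was 6.20 ± 0.570 times HSP90AA1 in shBry and 3.39 ± 0.353 times in shNC (SD, n = 3), with no overlap. This and the other ratios below were chosen after the values had been seen and are given without a test. Their absolute sizes depend on the annotated exon lengths used. Reads of these genes can be split with their pseudogenes, since 14.0% of the HSP90AA1 and 16.6% of the HSP90AB1 exon sequence, in stretches of 50 bases, is found elsewhere. The pseudogene HSP90AA2P was at 2.1, 2.4 and 2.0 CPM in shBry and 3.07, 4.73 and 6.46 CPM in shNC, and HSP90AB3P at means of 4.70 and 7.68 CPM. Both were called lower, with log2 fold changes of -1.13 (SE 0.26, edgeR adjusted p = 0.0023) and -0.71 (edgeR adjusted p = 0.0021). They moved in the same direction as their parent genes.

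Among cytosolic HSP70 genes, HSPA8 (HSC70, chr11:123057489-123063230, minus strand), serves folding and clathrin uncoating as the constitutive form. It was at 1181, 1073 and 1222 CPM in shBry and 2542, 2627 and 2623 CPM in shNC. The groups stood far apart, and the libraries within each lay close together. HSPA8 fell 2.24-fold, from 2598 ± 47.8 to 1159 ± 77.2 CPM (log2 fold change -1.16, SE 0.08, edgeR adjusted p = 3.1e-08). HSPA6 (chr1:161524540-161526910, plus strand), a strictly heat-inducible HSP70, was rare, at 0.538, 0.843 and 0.576 CPM in shBry and 3.07, 2.55 and 3.36 CPM in shNC. These values rest on 10, 20 and 13 reads in shBry and 67, 54 and 67 in shNC, without overlap. Its fall of 4.51-fold (log2 fold change -2.17, SE 0.29, edgeR adjusted p = 2.1e-05) was the largest among the tested members. HSPA6 shares 45.5% of its exon sequence, in stretches of 50 bases, with the pseudogene HSPA7, which had 1, 0 and 0 counts in shBry and 8, 8 and 7 in shNC. Reads of the pair could therefore have been divided between them or dropped. HSPA2 (chr14:64535905-64546173, plus strand), known for its role in the testis, was at 0.538, 1.64 and 1.15 CPM in shBry and 3.53, 3.17 and 4.06 CPM in shNC. It too was low in every shBry library and fell 3.14-fold (log2 fold change -1.65, SE 0.31, edgeR adjusted p = 0.00049). HSPA14, which works at the ribosome, was at 53.3 ± 2.24 CPM in shBry and 65.0 ± 4.02 CPM in shNC (SD, n = 3) and was not called (log2 fold change -0.29, edgeR adjusted p = 0.013).

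The HSP110 genes, whose products are large relatives of HSP70 that exchange its nucleotide, went different ways. HSPH1 (HSP105, chr13:31134974-31162388, minus strand), the heat-inducible one, was at 69.0, 89.9 and 92.9 CPM in shBry and 140, 177 and 212 CPM in shNC. Although the spread was wide in both groups, no library overlapped, and HSPH1 fell 2.09-fold (log2 fold change -1.07, SE 0.14, edgeR adjusted p = 1.9e-05). HSPA4 (APG2, chr5:133051962-133106449, plus strand) was at 171, 204 and 197 CPM in shBry and 115, 143 and 167 CPM in shNC. Here every shBry library was above every shNC library, the nearest pair by a small margin, and the log2 fold change of 0.43 (SE 0.12, edgeR adjusted p = 0.0069) was under the fold limit. HSPA4L overlapped between groups, at 5.92 ± 1.62 and 7.77 ± 1.65 CPM (log2 fold change -0.38, edgeR adjusted p = 0.15). Per length of exon, HSPA4 was 3.73 ± 0.292 times HSPH1 in shBry and 1.31 ± 0.0255 times in shNC (SD, n = 3), with no overlap. The lengths used, all annotated exons, were 5153 bases for HSPA4 and 8390 bases for HSPH1. In CPM, which leave length aside, HSPH1 was above HSPA4 in every shNC library (means 176 and 142 CPM).

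**Figure D2:**
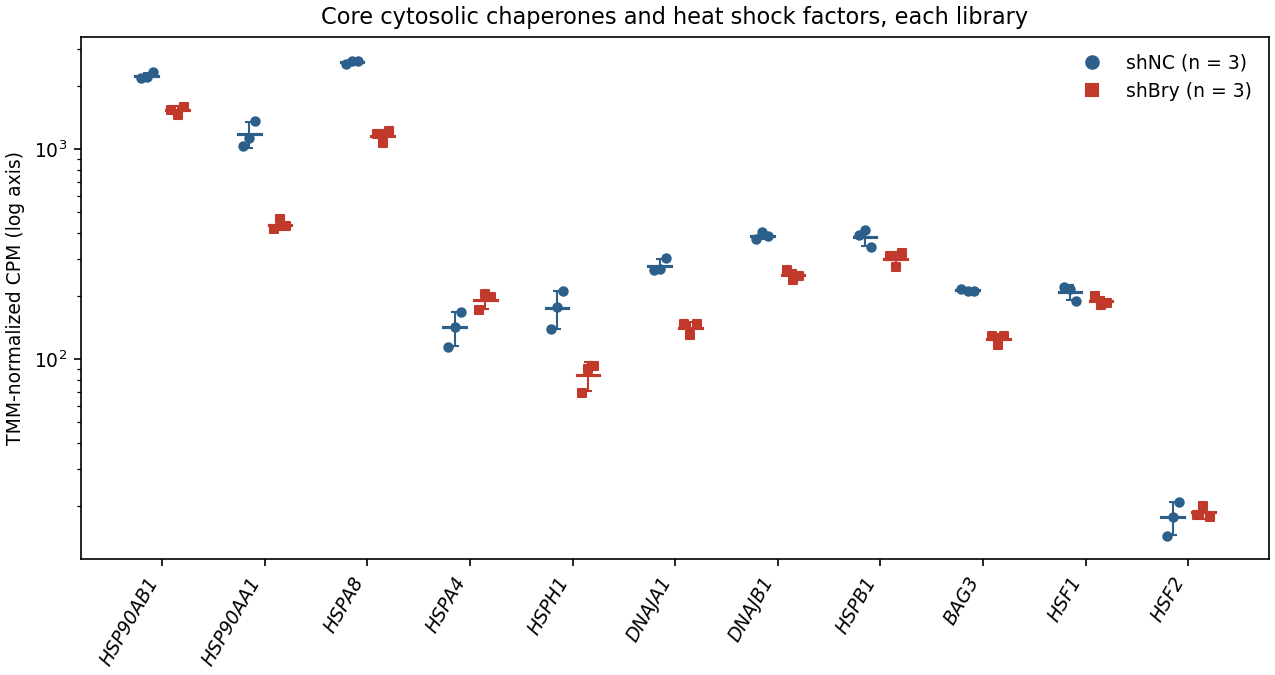
TMM-normalized CPM (log axis) of 11 core cytosolic chaperones and heat shock factors in each shNC (blue circles) and shBry (red squares) library, with mean and SD as bars. HSPA8, HSP90AA1, HSPH1, DNAJA1 and BAG3 are separated between groups by gaps, while HSF1 and HSF2 overlap.

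J-domain proteins of the DNAJA and DNAJB classes in the cytosol and nucleus deliver substrates to HSP70. Of the 12 members assigned there, the 7 tested had groups without overlap, and 5 of them fell. Over all tested genes, 59.5% had groups without overlap and 15.2% fell. DNAJA1 (chr9:33025211-33039907, plus strand) was at 147, 131 and 146 CPM in shBry and 266, 269 and 302 CPM in shNC. It fell 1.97-fold (log2 fold change -0.98, SE 0.08, edgeR adjusted p = 3.4e-07). DNAJB1 (HSP40, chr19:14514770-14529770, minus strand), the heat-inducible partner of HSP70 in disaggregation, was at 267, 237 and 249 CPM in shBry and 375, 403 and 384 CPM in shNC. Its 1.54-fold fall was just past the fold limit (log2 fold change -0.62, SE 0.08, edgeR adjusted p = 1.2e-05). DNAJB4 (chr1:77979175-78017964), close in sequence to DNAJB1, was at 1.99, 3.71 and 3.06 CPM in shBry and 5.41, 6.38 and 7.51 CPM in shNC, so all of its shBry libraries were lower. Its log2 fold change was -1.12 (SE 0.23, edgeR adjusted p = 0.00085). DNAJB5 and DNAJA2 fell as well, with log2 fold changes of -0.65 and -0.64. DNAJB6, a suppressor of polyglutamine aggregation, was at 148 ± 6.45 CPM in shBry and 211 ± 4.97 CPM in shNC but under the fold limit (log2 fold change -0.51, edgeR adjusted p = 6.1e-05). DNAJB2, which is best known from neurons, was the exception among these 7, with higher levels in shBry, 89.1 ± 8.97 beside 60.4 ± 4.65 CPM, and a log2 fold change of 0.56 (edgeR adjusted p = 0.00025) that was just under the fold limit.

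BAG proteins bind the ATPase domain of HSP70 through their BAG domain and release nucleotide. BAG3 (chr10:119651370-119677819, plus strand), the stress-inducible member that links HSP70 with small heat shock proteins and selective autophagy, was at 130, 117 and 129 CPM in shBry and 216, 212 and 212 CPM in shNC. The shNC libraries were nearly equal and all above shBry, and BAG3 fell 1.70-fold (log2 fold change -0.77, SE 0.08, edgeR adjusted p = 1.6e-06). BAG1, which couples HSP70 to the proteasome, fell from 40.3 ± 1.89 to 25.7 ± 2.15 CPM (SD, n = 3; log2 fold change -0.65, edgeR adjusted p = 0.00012). BAG2, BAG4 and BAG5 had no call, at log2 fold changes between 0.12 and 0.27.

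Small heat shock proteins hold unfolding proteins without ATP. HSPB1 (HSP27, chr7:76302544-76304295, plus strand) was at 309, 275 and 321 CPM in shBry and 391, 412 and 341 CPM in shNC, lower in each shBry library but with a small gap between the nearest pair. It was not called (log2 fold change -0.34, SE 0.09, edgeR adjusted p = 0.0061). HSPB8, the partner of BAG3, was in contrast at 88.3 ± 6.91 CPM in shBry and 60.4 ± 4.91 CPM in shNC, a log2 fold change of 0.55 (edgeR adjusted p = 0.00021) that was under the fold limit. HSPB6 was called higher from 1.28 ± 0.176 and 0.694 ± 0.213 CPM (log2 fold change 0.88, SE 0.34, edgeR adjusted p = 0.042), but this call was lost whenever any 1 library was left out. Of the exon bases of HSPB6, 38.2% overlap another gene. HSPB11, placed with these genes by its symbol alone, overlapped between groups.

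The heat shock factors themselves showed no call. HSF1, the main activator of the heat shock response, was at 199, 181 and 186 CPM in shBry and 220, 216 and 189 CPM in shNC, with a log2 fold change of -0.14 (SE 0.08, edgeR adjusted p = 0.16). HSF2, which acts in development and together with HSF1, was at 18.1, 20.1 and 17.8 CPM in shBry and 14.5, 17.8 and 20.9 CPM in shNC, with a log2 fold change of 0.08 (SE 0.14, edgeR adjusted p = 0.67). HSF4, known for its role in the lens, had a log2 fold change of -0.26 (edgeR adjusted p = 0.13). All 3 overlapped between groups. Activity of HSF1 is set largely by its release from chaperones, trimer formation and modification, none of which transcript levels measure.

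Mitochondrial members held the largest rise. HSPA9 (mortalin, chr5:138553756-138575724, minus strand) is the HSP70 of the mitochondrial matrix, which drives protein import, folding and iron-sulfur cluster transfer. It was at 859, 787 and 915 CPM in shBry and 350, 359 and 406 CPM in shNC. All shBry libraries were far above all shNC libraries, and HSPA9 rose 2.30-fold (log2 fold change 1.20, SE 0.09, edgeR adjusted p = 6.6e-08). As a share of all reads on the members, HSPA9 was 10.8% ± 0.361 in shBry and 3.42% ± 0.147 in shNC (SD, n = 3). Per length of exon, the level of HSPA9 relative to HSPA8, its cytosolic relative, was 0.433 ± 0.00645 in shBry and 0.0840 ± 0.00604 in shNC, which did not overlap.

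HSPD1 (HSP60) and HSPE1 (HSP10) form the barrel and the lid of the mitochondrial folding chamber. Their genes lie head to head on chromosome 2, HSPD1 at chr2:197486581-197516737 on the minus strand and HSPE1 at chr2:197499994-197503457 on the plus strand. The RefSeq starts are 104 bases apart, and the interval between them, chr2:197500275-197500378, is printed on the plus strand because it serves as promoter sequence for both genes. It holds no heat shock element of the form searched.
HSPD1-HSPE1 interval: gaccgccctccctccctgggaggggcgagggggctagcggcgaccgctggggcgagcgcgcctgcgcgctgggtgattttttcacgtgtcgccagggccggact

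HSPD1 was at 406, 350 and 421 CPM in shBry and 329, 341 and 408 CPM in shNC. The groups overlapped, and the gene was not called (log2 fold change 0.13, SE 0.10, edgeR adjusted p = 0.29). HSPE1 was at 41.0, 35.5 and 42.8 CPM in shBry and 88.8, 92.7 and 108 CPM in shNC. All shBry libraries were below all shNC libraries, and HSPE1 fell 2.43-fold (log2 fold change -1.28, SE 0.10, edgeR adjusted p = 1.7e-07). The ratio of HSPD1 to HSPE1 per length of exon was 4.61, 4.60 and 4.59 in shBry and 1.73, 1.71 and 1.76 in shNC. It hardly varied within a group, with means of 4.60 ± 0.0114 and 1.73 ± 0.0248, and differed 2.65-fold between groups. HSPE1 shares 23.9% of its exon bases with HSPD1 and with the read-through gene HSPE1-MOB4, so reads there may have been left uncounted or assigned to another row. The HSPE1-MOB4 row was at 15.2 ± 1.63 CPM in shBry and 18.1 ± 1.70 CPM in shNC (log2 fold change -0.25, edgeR adjusted p = 0.12), and MOB4 at 17.2 ± 2.22 and 11.6 ± 0.447 CPM (log2 fold change 0.58, edgeR adjusted p = 0.0022, not called). The part of this overlap in the HSPE1 result was not tested.

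**Figure D3:**
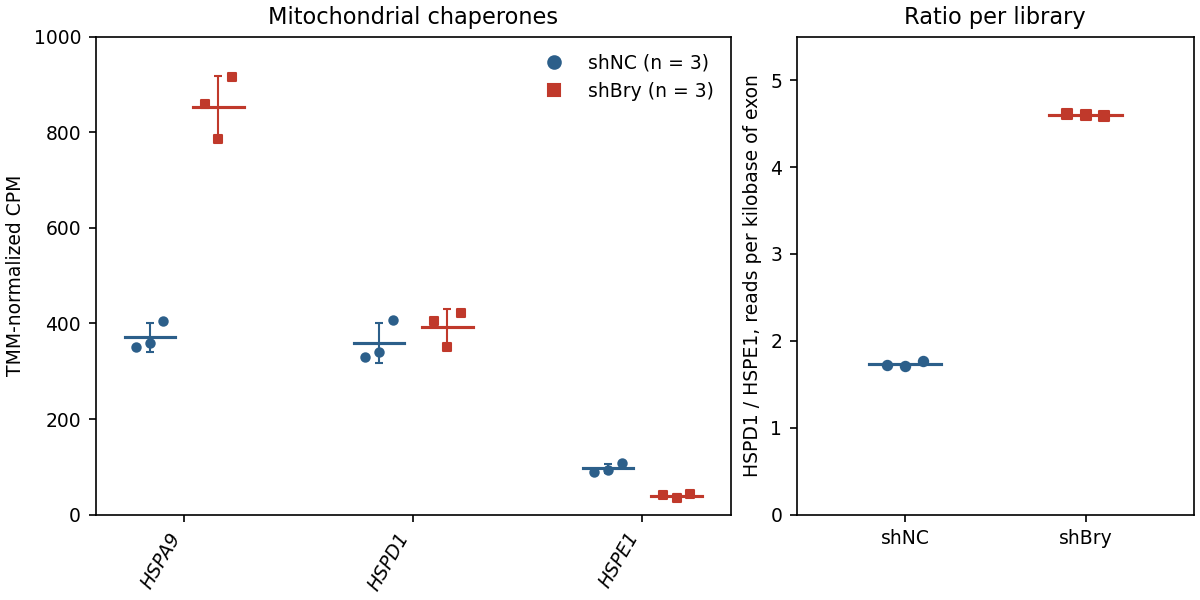
Left, TMM-normalized CPM of HSPA9, HSPD1 and HSPE1 in each library (shNC blue circles, shBry red squares, mean and SD as bars), and right, the ratio of HSPD1 to HSPE1 in reads per kilobase of exon. HSPA9 is higher and HSPE1 lower in every shBry library, HSPD1 overlaps, and the ratio lies at 4.59 to 4.61 in shBry and 1.71 to 1.76 in shNC.

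The J-domain proteins of mitochondria were not called. DNAJC19, of the import motor, had a log2 fold change of 0.46 (edgeR adjusted p = 0.0027) and DNAJC11, of the cristae-organising complex, one of -0.50 (edgeR adjusted p = 0.00018). DNAJC15 and DNAJC30 were near 0, at 0.20 and -0.02.

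In the ER, DNAJC10, HSPA13, DNAJB11 and DNAJC18 rose. DNAJC10 (ERdj5, chr2:182716041-182794464, plus strand), a reductase that opens disulfides of misfolded proteins for degradation, was at 94.0, 116 and 101 CPM in shBry and 48.6, 53.9 and 66.5 CPM in shNC (log2 fold change 0.88, SE 0.12, edgeR adjusted p = 2.1e-05). HSPA13 (chr21:14371115-14383484, minus strand), a microsomal HSP70 relative, was at 76.1, 92.4 and 72.1 CPM in shBry and 39.1, 41.8 and 51.3 CPM in shNC (log2 fold change 0.86, SE 0.12, edgeR adjusted p = 3.2e-05). Both were highest in shBry replicate 2 and, among shNC libraries, in replicate 3, and neither overlapped between groups. DNAJB11 (ERdj3, chr3:186567403-186585800, plus strand), a soluble co-chaperone of the ER HSP70, was at 103, 98.2 and 108 CPM in shBry and 61.4, 60.7 and 72.5 CPM in shNC (log2 fold change 0.67, SE 0.09, edgeR adjusted p = 3.0e-05). DNAJC18 (chr5:139408588-139444491, minus strand), anchored in the ER membrane, was at 31.1, 28.2 and 30.8 CPM in shBry and 14.2, 15.5 and 16 CPM in shNC (log2 fold change 0.98, SE 0.11, edgeR adjusted p = 6.1e-06). The groups were separate for both, and 23.2% of the exon bases of DNAJB11 overlap other genes. DNAJC1 and DNAJC16 were higher under the fold limit, with log2 fold changes of 0.37 and 0.31, DNAJC14 was lower at -0.27, and DNAJB12, DNAJB14 and DNAJC25 had adjusted p above 0.05.

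Of the remaining DNAJC genes, DNAJC2 and DNAJC17 rose and DNAJC22 fell. DNAJC2 (MPP11, chr7:103312474-103344873, minus strand), a partner of HSPA14 at the ribosome, was at 9.21, 11.5 and 10.2 CPM in shBry and 4.95, 4.96 and 7.76 CPM in shNC (log2 fold change 0.81, SE 0.19, edgeR adjusted p = 0.0024). DNAJC17 (chr15:40765155-40807478, minus strand), a nuclear protein tied to splicing, was at 44.1, 37.3 and 40.9 CPM in shBry and 23.5, 24 and 22.1 CPM in shNC (log2 fold change 0.81, SE 0.11, edgeR adjusted p = 1.8e-05). Neither gene overlapped between groups, although 26.1% of the exon bases of DNAJC17 are shared with neighbouring genes. DNAJC22 was at 9.72 ± 0.946 CPM in shBry and 17.3 ± 0.282 CPM in shNC (log2 fold change -0.83, SE 0.13, edgeR adjusted p = 9.1e-05). Below the fold limit, DNAJC8 of the spliceosome (-0.48), DNAJC9, a histone chaperone (-0.46), DNAJC4 (-0.46) and DNAJC13, of endosomes (-0.37), were lower on the log2 scale with adjusted p under 0.05. DNAJC6, the auxilin that uncoats clathrin vesicles (0.46), and DNAJC12, a co-chaperone of aromatic amino acid hydroxylases (0.56), were higher in the same way. DNAJC5, DNAJC7, DNAJC21, DNAJC24 and DNAJC27 had adjusted p above 0.05.

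Summed over all members, the reads made up 0.786% ± 0.0205 of a shBry library and 1.09% ± 0.0515 of a shNC library (SD, n = 3). The members' share was lower in every shBry library than in any shNC library. The 3 members with the most reads, HSPA8, HSP90AB1 and HSPA9 in shBry and HSPA8, HSP90AB1 and HSP90AA1 in shNC, made up 44.7% ± 0.761 and 55.4% ± 0.288 of the member reads.

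Partner genes outside the rule were read from 4 lists, of which 48 of 49 genes could be tested, 8 rose and 7 fell (31.2% called, beside 32.4% of all genes). The list of HSP90 co-chaperones, which also holds HSPBP1 of the HSP70 cycle, gave 2 rises and 5 falls among 19. NUDC, a p23-related co-chaperone of HSP90 and dynein, fell from 289 ± 5.07 to 150 ± 19.4 CPM (log2 fold change -0.95, edgeR adjusted p = 1.3e-06). UNC45A, a myosin chaperone, and HSPBP1, an exchange factor of HSP70, fell with log2 fold changes of -0.88 and -0.84. CACYBP (-0.72) and PTGES3, the p23 protein (-0.59), were called lower too. PTGES3 had overlapping groups and lost its call in 4 of the 6 fits with 1 library left out (log2 fold change -0.84 to -0.31), and CACYBP lost it without shNC replicate 3 (-0.58). CDC37 (-0.58), STIP1 (-0.45) and AHSA1 (-0.40), which load kinases, hand over clients and speed the ATPase of HSP90, were lower under the fold limit. TTC4 (0.79) and CDC37L1 (0.94) rose, and FKBP4, ST13 and STUB1 had no call at 0.09, -0.02 and -0.19 on the log2 scale. Of the exon bases of TTC4, 52.4% are shared with the read-through gene MROH7-TTC4.

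Among 13 genes of the TRiC chaperonin and of prefoldin, which fold actin and tubulin, there was 1 rise and 1 fall, both in prefoldin. PFDN2 was at 227, 181 and 222 CPM in shBry and 63.2, 67.0 and 68.8 CPM in shNC. Its rise, a log2 fold change of 1.66 (SE 0.10, edgeR adjusted p = 6.4e-09), exceeded that of any tested member. PFDN5, of the same hexamer, fell from 179 ± 5.83 to 96.5 ± 12.3 CPM (log2 fold change -0.89, edgeR adjusted p = 2.7e-06). Of the 8 TRiC subunits listed, none was called, and CCT3 was nearest to the fold limit at 442 ± 44.9 and 661 ± 10.6 CPM (log2 fold change -0.58, edgeR adjusted p = 5.4e-05). It was the only one of them below 0. CCT4 (0.41), CCT8 (0.33) and CCT5 (0.25, with overlapping groups) were higher under the fold limit with adjusted p below 0.05. TCP1, CCT2, CCT6A and CCT7 had adjusted p above 0.05.

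Of 10 mitochondrial chaperone and protease genes, 2 rose and 1 fell, and 7 were higher by adjusted p alone, beside 28% of all genes. GRPEL2, an exchange factor of HSPA9, rose from 12.3 ± 0.909 to 22.7 ± 4.48 CPM (log2 fold change 0.89, edgeR adjusted p = 0.00017). DNLZ, which keeps HSPA9 soluble, rose from 6.81 ± 1.73 to 13.4 ± 1.90 CPM (log2 fold change 0.97, edgeR adjusted p = 5.0e-04). CARD9 and GPSM1 overlap 26.9% of the exon bases of DNLZ. GRPEL1 and TIMM44, which also work with HSPA9, were higher under the fold limit, at log2 fold changes of 0.31 and 0.44. CLPB, a disaggregase of the intermembrane space, fell from 34.6 ± 2.89 to 21.8 ± 1.77 CPM (log2 fold change -0.67, edgeR adjusted p = 0.00019). TRAP1, the mitochondrial HSP90, was not called, at -0.08.

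Family members with other symbols gave 3 rises and no fall among 6 tested, CRYAB having too few reads. Of all tested genes, 17.1% rose and 15.2% fell. SEC63, the J-domain protein of the ER translocon, rose from 34.8 ± 6.65 to 68.4 ± 10.3 CPM (log2 fold change 0.98, edgeR adjusted p = 3.5e-05). HSCB, the J-domain partner of HSPA9 in iron-sulfur cluster assembly, rose from 9.33 ± 0.903 to 17.0 ± 2.50 CPM (log2 fold change 0.86, edgeR adjusted p = 2.0e-04). CHEK2 overlaps 20.6% of the exon bases of HSCB. HYOU1, the ER HSP110, was called higher with overlapping groups (log2 fold change 0.78), a call lost without shNC replicate 1 or 2. HSP90B1 (GRP94), the ER HSP90, was at 892 ± 44.8 CPM in shBry and 622 ± 72.6 CPM in shNC, under the fold limit (log2 fold change 0.52, edgeR adjusted p = 0.00024), whereas both cytosolic HSP90 genes were lower.

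**Figure D4:**
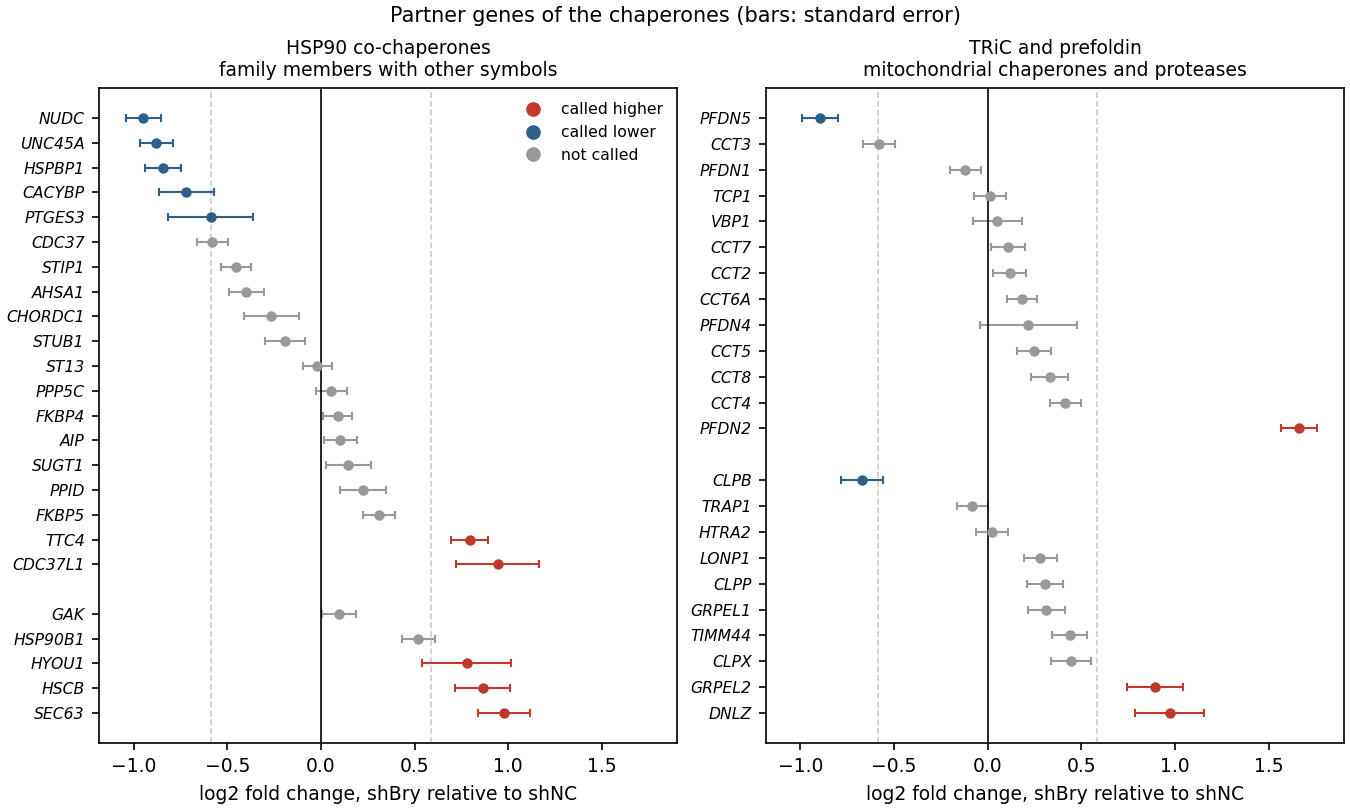
Log2 fold changes of 47 of the 48 tested partner genes, shBry relative to shNC (x axis), with standard errors as bars, in 4 groups. Dashed lines mark a fold change of 1.5, and PFDN2 at 1.66 and NUDC at -0.95 are the outermost genes on either side.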

How the data were processed

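Total RNA of 3 shBry and 3 shNC MDA-MB-231 samples was sequenced. The authors deposited raw counts, whole numbers of reads per gene and library, without normalization. The submitters' processing notes name HISAT2 2.0.4, HTSeq and GRCh38, while the annotation and the strand setting of the counting are not given in the sources used here, so reads in exons shared by genes on opposite strands may have been counted for either. Samples were grouped by the shRNA given in their labels.

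Low counts were removed by filterByExpr (minimum count 10) and TMM factors were computed. Differences of shBry from shNC were fitted in edgeR 4.0.16 (R 4.3.3), quasi-likelihood, no covariates, with Benjamini-Hochberg adjustment over 15277 genes. A call required adjusted p < 0.05 together with a fold of more than 1.5. The SE was the size of the log2 fold change divided by the square root of F. CPM are TMM-normalized. The fit was tested on simulated data. Replicates of a group differed by more than sampling noise (chi-square per degree of freedom 5.04 to 17.1).

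Members, partner lists and markers were chosen with earlier results of these data known. Members with values per library were 14 core genes and the up to 8 largest rises and falls among called members that averaged at least 1 CPM without overlap between groups, and from each partner list the 3 genes with the smallest adjusted p were described. Gene positions, exon overlap and exon length came from GENCODE 29 (79 of 82 members found), and promoters from RefSeq on GRCh38.p14. More than 20% of the exon bases overlapped other genes for 9 tested members, 4 of them called. Ratios per length divide reads by the total exon length of each gene. That length counts every annotated exon, so the absolute size of a ratio depends on it, while its fold between groups does not. Protein features were not analysed here. The values of 1 partner gene are not reported here.

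A count of 0 allows up to 3 counts, 0.131 to 0.155 CPM, which covers counting error only. Alternatives were no TMM, no filter, at least 10 counts in every library, DESeq2 1.42.0, voom of limma 3.58.1, unadjusted p, other fold limits, a replicate block and leaving out each library.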

Additional observations from a re-analysis of the deposited data

How the results depend on the processing

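Without a fold limit 8139 genes were called over the whole table, with 17 members higher and 26 lower and 19 partner genes higher and 11 lower. With a fold limit of 2 these counts were 2297 genes, 1 member higher (HSPA9) and 8 lower, and 1 partner gene higher (PFDN2) and 0 lower. Leaving out 1 library at a time gave 4587 to 5025 genes, 7 to 9 members higher and 16 to 17 lower, and 7 to 10 partner genes higher and 6 to 8 lower. DESeq2, voom, no TMM, unadjusted p, no filter and a stricter filter kept every such count within 1.5 times its value in the report. Of the 24 called members, 23 kept their call in all 6 fits with 1 library left out, and HSPB6 lost it in each, as it did with DESeq2, without the count filter and with the replicate block. HSF2 changed direction without shNC replicate 1, where its log2 fold change was -0.054, the lowest of a range up to 0.19 over these 6 fits, and its call did not change. DNAJB2 and HSPB8, just under the fold limit, were called higher without shBry replicate 2 or shNC replicate 1. Members with an adjusted p above 0.05 in the report that were called when 1 library was left out were HSPA4L (lower) without shBry replicate 2, and DNAJB14 and DNAJC24 (higher) without shNC replicate 3. Of the partner genes, PTGES3 lost its call with DESeq2, with voom, without TMM, with the replicate block and without shBry replicate 1, shBry replicate 3, shNC replicate 2 or shNC replicate 3, CACYBP without shNC replicate 3, and HYOU1 without shNC replicate 1 or 2. CDC37 and CCT3, at the fold limit, were called lower with DESeq2, without TMM, with either other filter and without shBry replicate 1, shNC replicate 2 or shNC replicate 3, CCT3 also with voom. HSP90B1 was called higher without shNC replicate 3.

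The shared replicate numbers were not taken as pairs. The deviations of same-numbered samples from their group means correlated at 0.159, -0.0663 and -0.0181 over 15277 genes. Not every sample correlated best with its own number. With so few samples, whose deviations sum to 0 within a group, these values cannot show that the samples were unpaired. With the replicate block, 4914 genes were called in place of 4945, with 7 members higher and 16 lower and 8 partner genes higher and 6 lower. The depth limits what can be said of the 20 untested members and of rare ones such as HSPA2 and HSPB6.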

Other observations

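DNAJA3 (TID1), a J-domain protein of the mitochondrial matrix, was at 1.08, 1.31 and 0.576 CPM in shBry and 1.15, 2.46 and 0.901 CPM in shNC. Scaled to exon length, its level was 0.547 ± 0.230 transcripts per 1000000 in shBry and 0.846 ± 0.459 in shNC (SD, n = 3), beside 401 ± 19.8 and 180 ± 17.4 for its partner HSPA9. No other gene of GENCODE 29 overlaps its exons, but the annotation used for counting is not known. Whether reads of DNAJA3 were lost in counting was not tested. The groups overlapped, and DNAJA3 was not called (log2 fold change -0.61, SE 0.41, edgeR adjusted p = 0.23).

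HSBP1, which binds the trimer domain of HSF1, was outside the rule and was looked up after the values of the heat shock factors had been seen. It was at 114 ± 4.69 CPM in shBry and 178 ± 13.2 CPM in shNC (SD, n = 3) and was called lower (log2 fold change -0.65, edgeR adjusted p = 1.5e-05).

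The libraries of a group were also compared after the values had been seen. Of the 62 tested members, 37 (59.7%) had their highest shNC level in replicate 3, beside 39.6% of all 15277 tested genes. The highest shBry level was in replicate 2 for 20 members (32.3%), beside 34.8% of all tested genes, and both held for 16 members (25.8%), beside 3056 of the 15277 genes. On the second principal component of all tested genes, shBry replicate 2 lay at -30.3 and shNC replicate 3 at -18.2, with the other libraries between 4.42 and 24. The first component, 74.2% of the variance, separated shBry from shNC.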
